A study of Mus musculus with 141 samples.

Results

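*Sult1e1*, *Tph2*, *Lipf* and *Tm4sf19* are 4 of the 36558 genes measured by RNA-seq in inguinal white adipose tissue (iWAT) of the Hybrid Mouse Diversity Panel (HMDP). They are autosomal genes that were chosen by their counts and TPM in iWAT, which were much higher in the male than in the female libraries. That difference is therefore given here as a description without a test. The questions that were tested are how the 4 genes vary among strains, whether a strain keeps its rank in the other sex, and how they move with adipocyte, macrophage and stromal genes.

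The HMDP is a collection of classical inbred and recombinant inbred mouse strains. Both sexes were fed the obesogenic HF/HS diet, rich in fat and sucrose, which began at an age of 8 weeks and lasted 8 weeks, and the tissue was taken after a fast of 4 h. Subcutaneous adipose tissue of 82 strains was sequenced in 67 female and 74 male libraries, with 1 library per sex and strain, and 59 strains have both sexes. The male libraries comprise 34 BXD strains (from C57BL/6J and DBA/2J), 11 AXB/BXA strains (from A/J and C57BL/6J), 3 BXH strains (from C57BL/6J and C3H/HeJ), 3 CXB strains (from BALB/cJ and C57BL/6J) and 23 inbred strains, and the female libraries 32, 9, 2, 3 and 21. A strain has no replicate within a sex, so the spread between strains holds genetic differences, differences between animals and measurement error together.

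Sequencing depth lay between 6.27e+06 and 7.86e+07 estimated counts, at a median of 3.02e+07. A library of median depth reaches 0.0992 counts-per-million (CPM) with 3 counts, which serve as the detection floor. The sex labels were checked with 4 Y-linked genes, *Uty*, *Kdm5d*, *Eif2s3y* and *Ddx3y*. Their summed level was 185 to 539 CPM in 73 male libraries and 5.58 to 34.1 CPM in 65 female libraries. The library labelled BXD69/RwwJ female reached 368 CPM, the library labelled NZW/LacJ male had 8.16 CPM, and the library labelled BXD34/TyJ female had 1425 CPM, nearly all of it from *Uty* and *Kdm5d*. BXD34/TyJ female was also the shallowest library. NZW/LacJ is the only one of these strains with both sexes, and several results are given both with and without these 3 libraries. Where nothing is said, the libraries are included. Adipocyte markers were present throughout, with a summed level of 10 genes between 4308 and 46288 CPM.

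The 4 genes have no common function. *Sult1e1* encodes oestrogen sulfotransferase, which attaches sulfate to oestrogens and thereby keeps them from their receptor, and it is known from the testis and from male fat. *Tph2* encodes the neuronal form of tryptophan hydroxylase, the rate-limiting enzyme of serotonin synthesis, and is best known from the raphe nuclei of the brainstem. *Lipf* encodes gastric lipase, an acid lipase that the stomach secretes. *Tm4sf19* encodes a membrane protein of the L6 tetraspan family that is known from osteoclasts and macrophages. Adipose tissue under a fattening diet holds adipocytes, stromal cells and macrophages, and lipid-laden macrophages there take on genes that are shared with osteoclasts, such as *Trem2*, *Gpnmb* and *Atp6v0d2*.

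In the GENCODE M21 annotation of GRCm38, *Sult1e1* (ENSMUSG00000029272) lies on chr5:87575969-87591594 on the minus strand and *Tph2* (ENSMUSG00000006764) on chr10:115078641-115185022 on the minus strand. *Lipf* (ENSMUSG00000024768) lies on chr19:33961187-33976810 and *Tm4sf19* (ENSMUSG00000079625) on chr16:32400506-32408227, both on the plus strand. No stretch of 31 bases of their annotated transcripts, the length of match on which the quantification rests, occurred in an M21 transcript of another gene. Of the 36558 identifiers 35935 have an M21 entry, and sharing of reads with the remaining identifiers was not tested. The sequences directly before the start of each gene are shown because 3 of the 4 genes turned out to move together, and a reader may want to compare what precedes them. They come from RefSeq on GRCm38.p6, run 5′ to 3′ on the strand of the gene, and capitals mark a TATAAA match. They hold only bases before both the RefSeq and the GENCODE start, which leaves 189 bases for *Lipf* and 250 for the others. The windows are chr5:87591612-87591861, chr10:115185023-115185272, chr19:33960998-33961186 and chr16:32400256-32400505.
Sult1e1: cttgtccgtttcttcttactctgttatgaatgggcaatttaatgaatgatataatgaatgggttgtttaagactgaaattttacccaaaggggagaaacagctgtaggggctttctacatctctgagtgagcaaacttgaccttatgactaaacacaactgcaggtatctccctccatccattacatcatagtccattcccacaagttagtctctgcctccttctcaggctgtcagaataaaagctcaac
Tph2: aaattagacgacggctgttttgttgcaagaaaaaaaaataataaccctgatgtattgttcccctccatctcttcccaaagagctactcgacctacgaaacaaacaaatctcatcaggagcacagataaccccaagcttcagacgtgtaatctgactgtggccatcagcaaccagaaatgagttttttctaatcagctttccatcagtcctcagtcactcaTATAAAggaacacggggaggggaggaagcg
Lipf: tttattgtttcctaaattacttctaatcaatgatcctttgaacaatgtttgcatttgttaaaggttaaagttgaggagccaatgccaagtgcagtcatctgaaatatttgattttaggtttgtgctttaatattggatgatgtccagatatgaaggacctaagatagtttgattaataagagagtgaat
Tm4sf19: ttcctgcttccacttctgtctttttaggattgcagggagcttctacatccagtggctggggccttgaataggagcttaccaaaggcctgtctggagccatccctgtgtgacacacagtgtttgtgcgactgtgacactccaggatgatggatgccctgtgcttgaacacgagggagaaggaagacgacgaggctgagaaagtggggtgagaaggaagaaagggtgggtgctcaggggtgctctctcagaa

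Both strands of these windows were searched for the palindromic androgen response element, its core AGAACA, the palindromic oestrogen response element, the STAT5-type palindrome TTCNNNGAA and TATAAA. The core AGAACA is contained in the full androgen element. TATAAA 30 bases before the end of the *Tph2* window was the only match. Among 32851 promoters, windows of 250 bases held AGAACA in 16.1%, TATAAA in 12.4%, TTCNNNGAA in 7.02%, the oestrogen response element in 0.0639% and the androgen response element in 0.00913% of cases. A match or its absence describes these letters and nothing about binding.

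*Sult1e1* separated the sexes almost completely. In males its level ranged from 0 to 41.4 transcripts-per-million (TPM) with a median of 6.90 and a mean of 11.3 ± 10.8 (SD, n = 74). In females 52 of 67 libraries had no count, the median was 0 and the highest value was 2.36 TPM. Both extremes belong to libraries against their label, since the male at 0 is NZW/LacJ and the female at 2.36 TPM is BXD69/RwwJ. Without the 3 libraries, males ran from 1.09 TPM in NZB/BlNJ to 41.4 TPM in SM/J, and females did not exceed 0.168 TPM. None of these 65 females had more than 3 counts and none of the 73 males had fewer than 18, so the groups did not overlap. The share of all genes that part the sexes in this way was not computed, and *Sult1e1* was chosen for its excess in males. Added over libraries, the females held 26 counts of *Sult1e1*, or 0.0134 CPM with an exact Poisson interval of 0.00873 to 0.0196 at 95%. The males held 15614 counts, or 6.76 CPM, which is 506 times the female level. With all libraries the females held 63 counts, or 0.0318 CPM, and the males 6.68 CPM, which is 210 times as much. The interval covers counting error only.

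*Tph2* was the member with the highest level and the widest range in both sexes. Males ran from 0.0167 TPM in SM/J over a median of 16.7 to 135.5 TPM in BXD24/TyJ-Cep290<rd16>/J, with a mean of 27.3 ± 31.8 TPM (SD, n = 74). Females ran from 0 in CXB13/HiAJ over a median of 1.89 to 111.6 TPM in BXD69/RwwJ, with a mean of 12.4 ± 25.2 TPM (SD, n = 67). The sexes overlapped widely, and counted on CPM, 14 females lay above the male median and 17 males below the female median. Without the libraries against their label the highest female was CE/J at 104.2 TPM, and the next were BXD86/RwwJ at 99.4 TPM and BXD60/RwwJ at 78.3 TPM.

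*Lipf* ran in males from 0 in BXD15/TyJ over a median of 6.88 to 62.6 TPM in BXD60/RwwJ, with a mean of 10.3 ± 12.1 TPM (SD, n = 74). In females it ran from 0, in 6 libraries, over a median of 0.868 to 46.3 TPM, again in BXD60/RwwJ, with a mean of 3.1 ± 6.90 TPM (SD, n = 67). The sexes overlapped, and counted on CPM, 6 females lay above the male median. *Tm4sf19* was the lowest member. It ran in males from 0 over a median of 0.945 to 16.6 TPM in CE/J, with a mean of 2.15 ± 3.22 TPM (SD, n = 74). Females had a median of 0.133 TPM and a mean of 0.5 ± 1.04 TPM (SD, n = 67), and the highest, at 7.32 TPM, was BXD69/RwwJ. Without it and the other libraries against their label no female exceeded 2.31 TPM, and counted on CPM, 21 of 73 males lay above the highest female. For these counts too the share over all genes was not computed.

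**Figure D1:**
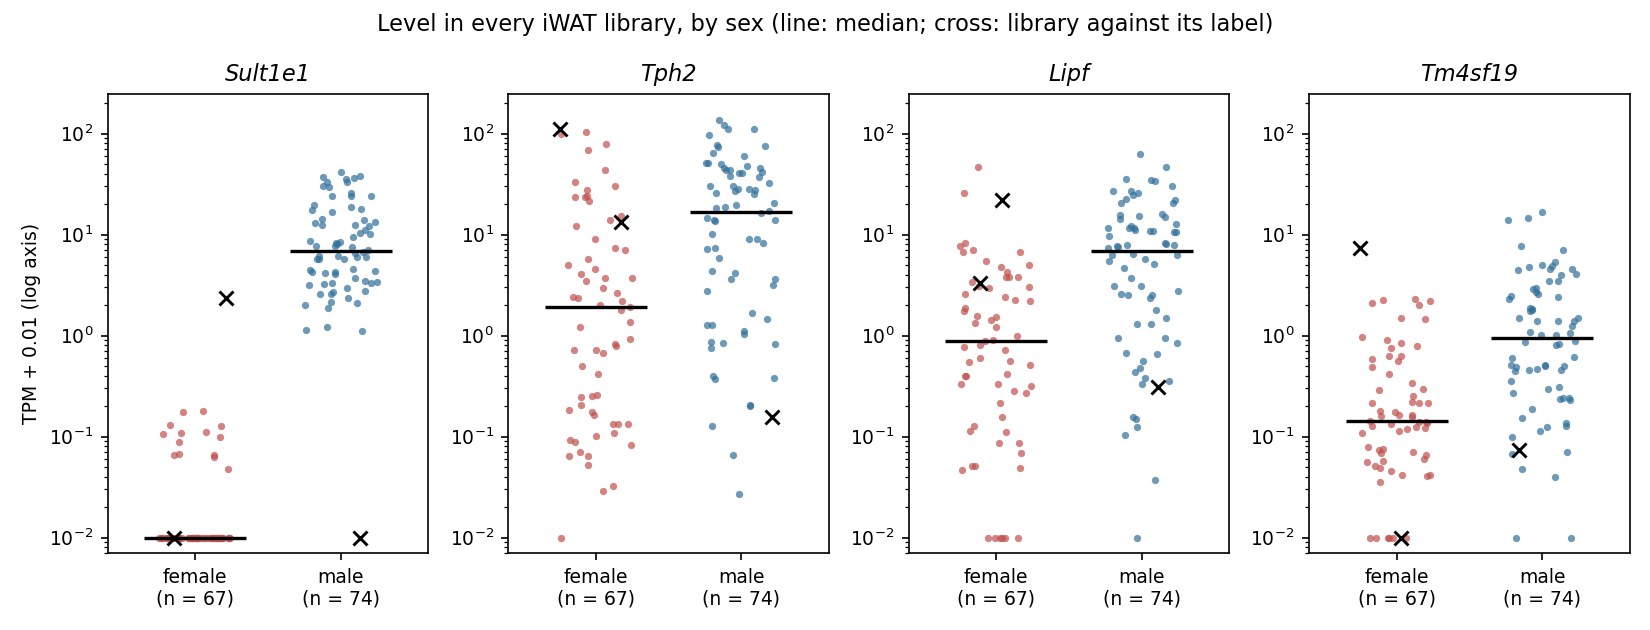
Level of each gene in every library in TPM on a log axis, with 0.01 added, for 67 females (red) and 74 males (blue); lines are medians and crosses are the 3 libraries whose Y-linked genes go against the label. For *Sult1e1* the sexes overlap only through crosses, whereas *Tph2*, *Lipf* and *Tm4sf19* spread over several orders of magnitude within each sex.

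In the 59 strains with both sexes the fitted log2 fold change (log2FC), female vs. male, was -8.48 (SE 0.27) for *Sult1e1*, -2.49 (SE 0.39) for *Tph2*, -2.46 (SE 0.31) for *Lipf* and -2.26 (SE 0.31) for *Tm4sf19*. In that fit 29.8% of the 16767 genes tested were called lower in females by edgeR's quasi-likelihood test, and nothing is read from the members here since the same contrast chose them. Without NZW/LacJ the log2FC was -8.61 for *Sult1e1*, -2.57 for *Tph2*, -2.53 for *Lipf* and -2.34 for *Tm4sf19*. The values depend on the scale. *Sult1e1* had -5.93 on the log2(TPM + 0.1) scale. On the log2(TPM + 1) scale, which understates the change of low genes, the values were -3.07 for *Sult1e1*, -1.54 for *Tph2*, -1.33 for *Lipf* and -0.75 for *Tm4sf19*. Without pairing the sexes of a strain (no replicate block) the log2FC was -8.62, -1.29, -1.73 and -2.40 in the same order, and that of *Tph2* moved by over 1.5 times.

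Males were not higher in every strain. The male library had the higher CPM in 58 of 59 strains for *Sult1e1*, the exception being NZW/LacJ, where the male library goes against its label. It was higher in 50 strains for *Tph2*, in 52 for *Lipf* and in 49 for *Tm4sf19*. Among strains with more than 3 counts in both sexes, the ratio of male to female CPM of *Tph2* had a median of 5.09 over 51 strains, from 0.0330 in AXB19b/PgnJ to 238 in CXB6/ByJ. For *Lipf* the median ratio was 4.44 over 43 strains, with the same strains at the ends, at 0.0472 and 123.7. For *Tm4sf19* the median ratio was 3.82 over 30 strains, from 0.253 in AXB12/PgnJ to 39.1 in C3H/HeJ.

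The strains that went the other way were partly shared. Of the 15 strains with a higher female level of at least 1 of *Tph2*, *Lipf* and *Tm4sf19*, 2 had all 3 higher in the female, namely AXB19b/PgnJ and NZW/LacJ, and 6 had 2 of them. The male library of NZW/LacJ goes against its label. Strains were counted on CPM without a detection floor, so some directions rest on few counts. An example is *Lipf* in BXD87/RwwJ, with 3 counts in the female and 2 in the male. In AXB19b/PgnJ the female had 7.35 TPM of *Tph2* against 0.197 in the male, 3.78 TPM of *Lipf* against 0.147, and 0.477 TPM of *Tm4sf19* against 0. Its *Sult1e1* kept the usual direction, at 0 TPM in the female and 2.95 TPM in the male. CE/J had nearly the same level of *Tph2* in both sexes, 104.2 TPM in the female and 97.1 TPM in the male, but 16.6 TPM of *Tm4sf19* in the male against 1.44 TPM in the female. C57BL/6J showed a wide gap, with 110 TPM of *Tph2* in the male against 0.668 TPM in the female and 35.7 TPM of *Lipf* against 0.591 TPM.

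**Figure D2:**
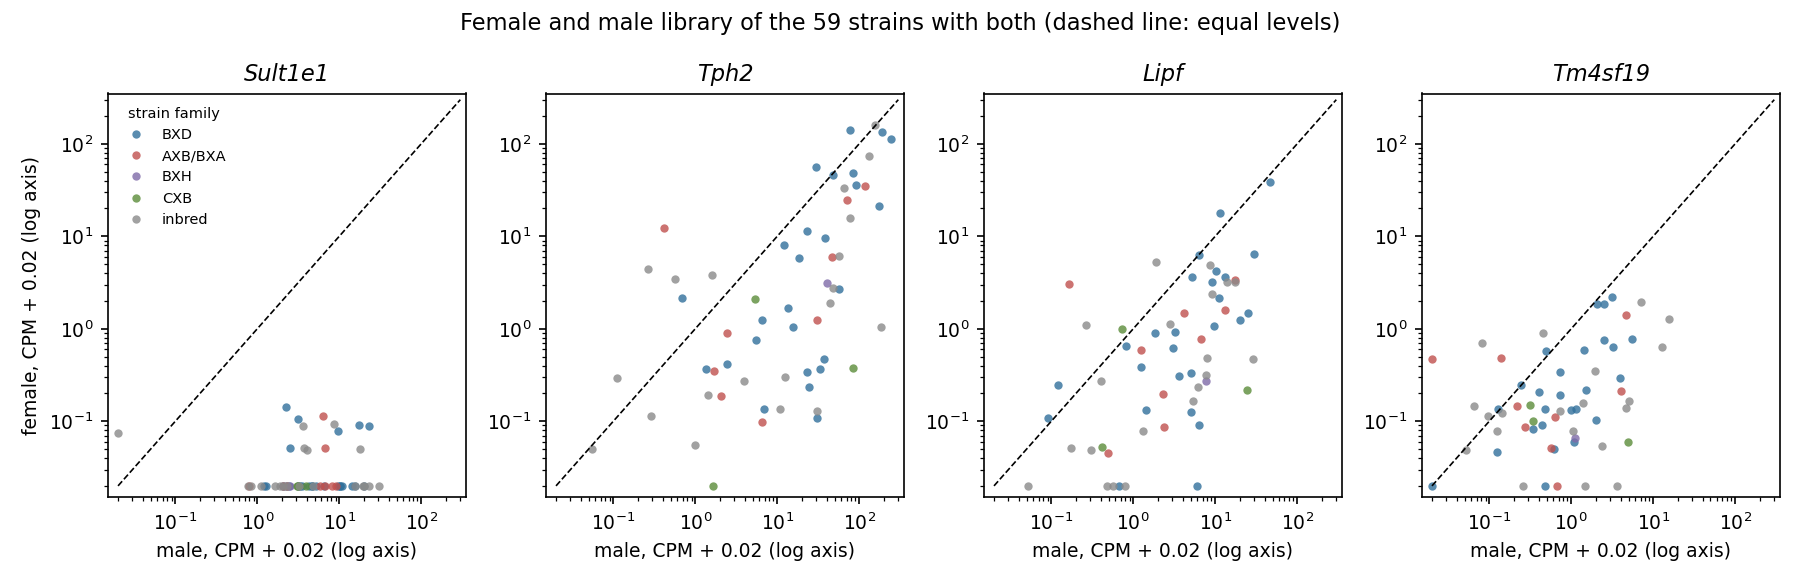
Female against male level of each gene in the 59 strains with both sexes, in CPM with 0.02 added on log axes; each point is a strain, colours are strain families and the dashed line marks equal levels. The female level of *Sult1e1* stays near 0 whatever the male level, while strains with a high male level of *Tph2* and *Lipf* tend to have a higher female level, with Pearson r of 0.58 for both.

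Strains kept part of their order across the sexes for 3 of the 4 genes. The tests treat strains as independent, although many share parents. Over the 59 strains, log2 CPM of *Tph2* in females and males correlated with Pearson r = 0.58 (p = 1e-05) and Spearman rho = 0.62 (p = 1e-05), by two-sided permutation tests in which 1e-05 is the smallest p possible. The values for *Lipf* were r = 0.58 (permutation p = 2e-05) and rho = 0.61 (permutation p = 1e-05). *Tm4sf19* had r = 0.40 (permutation p = 0.00141) and rho = 0.37 (permutation p = 0.00378). Leaving out the 2 strains farthest from the male median gave r = 0.55, 0.55 and 0.34, and leaving out NZW/LacJ gave r = 0.61, 0.60 and 0.44. As a description, the median r over all 16767 genes was 0.30, and 8.62% of genes had a higher r than *Tph2*, 8.37% a higher r than *Lipf* and 28.1% a higher r than *Tm4sf19*. For *Sult1e1* r was 0.0083 (permutation p = 0.95) and rho 0.10 (permutation p = 0.432), without NZW/LacJ r was 0.14 (permutation p = 0.303), and with the females at or under the floor an order among them was not detectable at this depth.

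Among males, *Tph2*, *Lipf* and *Tm4sf19* rose and fell together, and *Sult1e1* varied apart from them. Over 74 male libraries *Tph2* and *Lipf* correlated with r = 0.85 and rho = 0.88, *Tph2* and *Tm4sf19* with r = 0.74 and rho = 0.77, and *Lipf* and *Tm4sf19* with r = 0.70 and rho = 0.70 (two-sided permutation p = 1e-05 for each, 6 pairs computed). Without the 2 libraries farthest from the median r was 0.90, 0.74 and 0.71. In the 67 females the 3 pairs had r = 0.87, 0.66 and 0.56 (permutation p = 1e-05 for each). *Sult1e1* had r = 0.15 with *Tph2* (permutation p = 0.215), 0.13 with *Lipf* (permutation p = 0.252) and 0.094 with *Tm4sf19* (permutation p = 0.426) in males, with rho of 0.10, 0.055 and 0.031. Without the NZW/LacJ male these r were 0.033, 0.054 and 0.0062. Its r with *Tm4sf19* in females was 0.29 (permutation p = 0.0178), and without the female libraries against their label it was -0.010 (permutation p = 0.936).

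Single strains show different combinations. SM/J had the highest male level of *Sult1e1*, 41.4 TPM, and the lowest male level of *Tph2*, 0.0167 TPM, with 1.29 TPM of *Lipf* and 0.0879 TPM of *Tm4sf19*. I/LnJ males had 33.03 TPM of *Sult1e1* and 0.0563 TPM of *Tph2*, and BALB/cJ males 36.6 TPM of *Sult1e1* and 0.0300 TPM of *Tm4sf19*. BXD24/TyJ-Cep290<rd16>/J males had the highest *Tph2*, 135.5 TPM, and 1.87 TPM of *Sult1e1*. Other males were high in *Sult1e1* and in another member. KK/HlJ males had 35.4 TPM of *Sult1e1* and 14.7 TPM of *Tm4sf19*. C3H/HeJ males had 17.7 CPM of *Sult1e1* and 47.4 CPM of *Tph2*, and BXD64/RwwJ males 19.9 and 83.8 CPM. BXD60/RwwJ was high in *Tph2* and *Lipf* in both sexes, with 121.6 TPM and 62.6 TPM in the male and 78.3 TPM and 46.3 TPM in the female. Its male had 18.7 TPM of *Sult1e1*. The spread between males was large for all 4. The SD of log2 CPM was 1.47 for *Sult1e1*, 2.78 for *Tph2*, 2.31 for *Lipf* and 1.91 for *Tm4sf19*, beside a median of 0.42 over all genes tested.

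No difference between families of strains was detected for the 4 genes. Over the male libraries of the BXD, AXB/BXA and inbred families, 7.07% of 17633 genes differed between families by edgeR's quasi-likelihood F test with Benjamini-Hochberg adjustment, and none of the 4 genes did, with adjusted p = 0.653 for *Sult1e1*, 0.879 for *Tph2*, 0.764 for *Lipf* and 0.372 for *Tm4sf19*. *Sult1e1* had a male median of 7.67 TPM in BXD, 9.47 TPM in AXB/BXA and 6.05 TPM in inbred strains. *Tph2* had medians of 16.4, 16.3 and 7.42 TPM, *Lipf* of 7.72, 5.52 and 2.75 TPM, and *Tm4sf19* of 0.945, 0.494 and 1.4 TPM. The ranges of the families overlapped for every gene. Inbred against BXD males had a log2 difference of 0.20 (SE 0.37) for *Sult1e1*, -0.27 (SE 0.58) for *Tph2*, -0.57 (SE 0.53) for *Lipf* and 1.06 (SE 0.51) for *Tm4sf19*. On the log2(TPM + 0.1) scale with limma these differences were -0.35, -1.32, -0.83 and 0.21 in the same order, so that of *Sult1e1* changed sign, and none was called. The 95% interval of the last value in the main fit reached from 0.05 to 2.06, and those of *Tph2* and *Lipf*, -1.4 to 0.87 and -1.6 to 0.46, leave room for a level lower by 2-fold and more. The 3 BXH males had 26.95 to 49.95 TPM of *Tph2* and the 3 CXB males 0.812, 1.28 and 45.2 TPM, and these families were not tested.

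**Figure D3:**
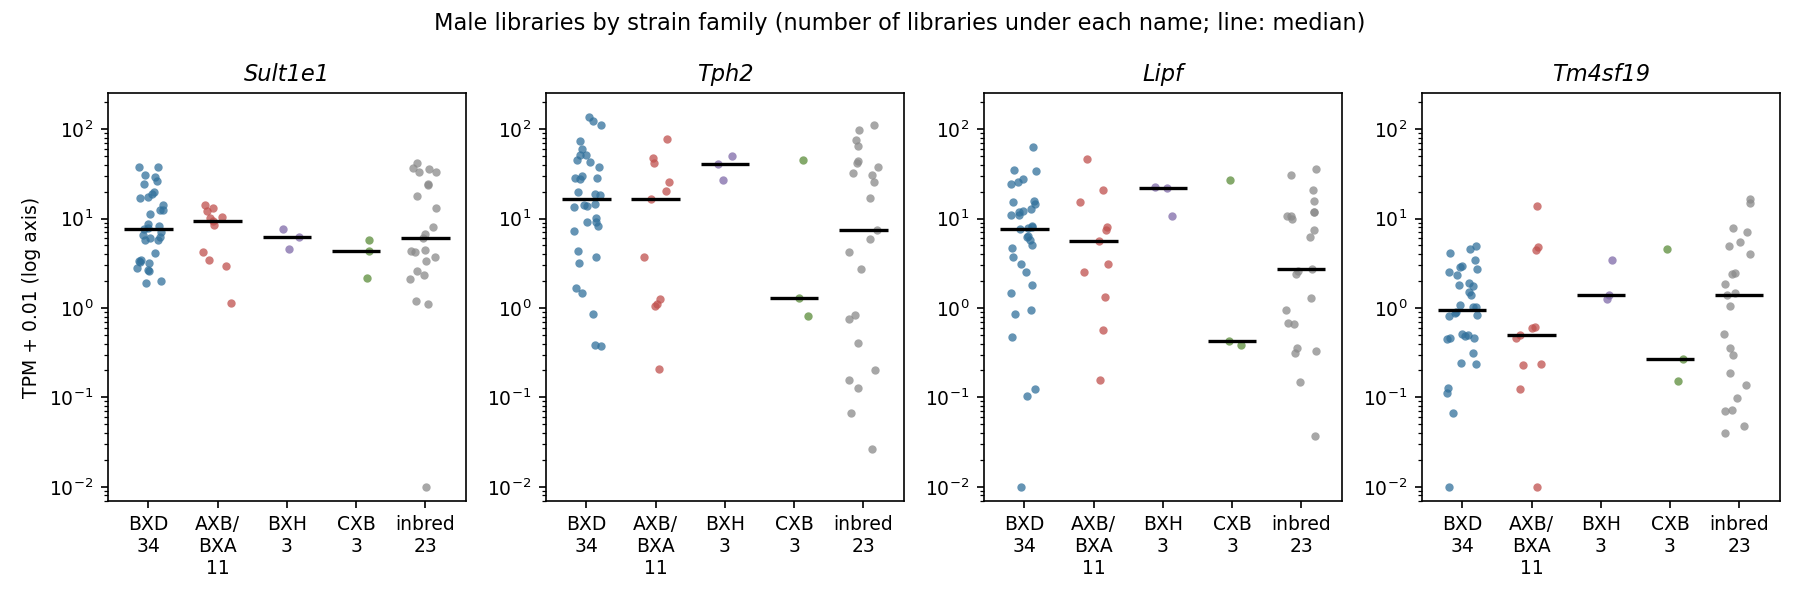
Level of each gene in the 74 male libraries by strain family, in TPM with 0.01 added on a log axis; each point is 1 strain and lines are medians. The families overlap for every gene, and the medians of *Tph2* are 16.4 TPM in BXD, 16.3 TPM in AXB/BXA and 7.42 TPM in inbred strains.

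Recombinant strains often lay outside the range of their parent libraries. The share of strains that do so over all genes was not computed, so this is not read as a trait of these genes. For *Tph2* in males, C57BL/6J had 183 CPM and DBA/2J 56.9 CPM, and of 34 BXD males 2 were above both parents, 7 between them and 25 below both, down to 0.661 CPM. For *Lipf* 3 BXD males were above both parents, 12 between and 19 below both. For *Tm4sf19* the counts were 3, 5 and 26. The 32 BXD females stood otherwise to their parents, whose female levels were low. For *Tph2*, at 1.03 CPM in C57BL/6J and 6.18 CPM in DBA/2J, 16 were above both, 7 between and 9 below both. *Lipf* had nearly equal parents, at 0.445 and 0.463 CPM, so hardly any strain could lie between them. Its counts were 22, 0 and 10. *Tm4sf19* was at 0.0343 CPM in C57BL/6J and 0 in DBA/2J, so no strain could lie below both. Its counts were 27, 5 and 0. The 32 females include BXD34/TyJ and BXD69/RwwJ, which go against their label. *Sult1e1* had similar levels in both parents, 3.63 CPM in C57BL/6J and 2.30 CPM in DBA/2J, and 19 BXD males were above both, up to 22.9 CPM, and 8 below both. The AXB/BXA family has parents far apart in *Tph2*, with 1.4 CPM in A/J and 183 CPM in C57BL/6J, and 10 of its 11 males lay between them. For *Lipf* 8 of the 11 lay between. For *Sult1e1* and *Tm4sf19*, whose parents were closer together, 0 of the 11 did. Each parent is 1 library per sex, so its own error is unknown. The 3 sublines AXB19/PgnJ, AXB19a/PgnJ and AXB19b/PgnJ, which share their origin, had 16.3, 1.10 and 0.197 TPM of *Tph2* and 10.2, 4.25 and 2.95 TPM of *Sult1e1* in males.

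The difference between the sexes was also compared between the 26 BXD strains and the other strains with both sexes. No gene of 16767 was called by edgeR's quasi-likelihood test of that difference (0% of genes), and 0 genes were called by limma on log2(TPM + 1). By edgeR 314 genes (1.87%) had an unadjusted p under 0.05, a share below the nominal rate of that limit. The log2FC, female vs. male, was higher in BXD strains by 0.29 (SE 0.76) for *Tph2*, 0.48 (SE 0.61) for *Lipf* and 0.64 (SE 0.61) for *Tm4sf19*, each with adjusted p = 0.9998. The 95% intervals were -1.20 to 1.78, -0.70 to 1.67 and -0.55 to 1.84, so a family difference of 2-fold could have gone unseen. For *Sult1e1* the value was 0.04 (adjusted p = 0.9998), with females near 0 in all families.

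The relation to cell type genes was tested within males, 1 score at a time. A score averages the log2 CPM of the markers of a cell type, and a slope is the log2 change of a gene per SD of the score. In whole tissue, fewer cells of a type and less RNA per cell cannot be told apart. The macrophage score holds 12 genes such as *Adgre1*, *Cd68* and *Csf1r*. In males 16.3% of 18261 genes rose with it and 22.5% fell, and 3 of the 4 genes rose. The slope of *Tm4sf19* was 1.44 (SE 0.16, adjusted p = 7.9e-12), that of *Tph2* 0.91 (SE 0.24, adjusted p = 0.00172) and that of *Lipf* 0.67 (SE 0.21, adjusted p = 0.00813). *Sult1e1* had a slope of 0.31 (SE 0.18, adjusted p = 0.15).

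The stromal score holds 12 genes of fibroblasts and adipose progenitors such as *Pdgfra*, *Col1a1* and *Dpp4*, and in males 18.9% of 17982 genes rose with it and 25.6% fell. *Sult1e1* rose with a slope of 0.64 (SE 0.15, adjusted p = 0.000425) and *Tm4sf19* with 0.96 (SE 0.21, adjusted p = 0.000193). Without the NZW/LacJ male the slope of *Sult1e1* was 0.61 (adjusted p = 0.000404). *Tph2* had 0.50 (SE 0.25, adjusted p = 0.104) and *Lipf* 0.33 (SE 0.22, adjusted p = 0.218). The adipocyte score holds 10 genes such as *Adipoq*, *Plin1* and *Lep*, and 32.8% of 18450 genes rose with it and 31.6% fell. None of the 4 genes passed the test in males, with slopes of 0.59 for *Lipf* (SE 0.28, adjusted p = 0.0608), 0.58 for *Tph2* (SE 0.31, adjusted p = 0.0866), 0.19 for *Sult1e1* (SE 0.20, adjusted p = 0.406) and -0.21 for *Tm4sf19* (SE 0.29, adjusted p = 0.54). DESeq2 called the first pair, with adjusted p = 0.00822 for *Lipf* and 0.0159 for *Tph2*.

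With the 3 scores in 1 model the genes parted further. The stromal slope of *Sult1e1* was 0.79 (SE 0.21, adjusted p = 0.00835) where 5.22% of genes rose, and its macrophage slope was -0.22 (SE 0.21, adjusted p = 0.506). The macrophage slope of *Tm4sf19* was 2.00 (SE 0.25), of *Tph2* 1.43 (SE 0.35) and of *Lipf* 1.33 (SE 0.35), with adjusted p of 4.34e-09, 0.00271 and 0.00465, where 8.93% of genes rose. The adipocyte slope was 0.76 for *Tph2* (SE 0.26, adjusted p = 0.00743) and 0.70 for *Lipf* (SE 0.24, adjusted p = 0.0102), where 32.8% of genes rose. The stromal slope of *Tm4sf19* was no longer past the threshold, at -0.67 (SE 0.27, adjusted p = 0.09).

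The score of lipid-associated macrophage and osteoclast-type genes, a list of 14 genes including *Trem2*, *Mmp12*, *Atp6v0d2* and *Dcstamp*, was tried as a further score after the data were seen. The list also holds *Fabp5*, *Cd9* and *Lpl*, the last of which stands among the lipase genes below as well. Its members *Atp6v0d2* and *Trem2* are also among the 5 genes most like *Tm4sf19* in the same males, so a steep slope of *Tm4sf19* on this score is no independent result. The part of other cells in this score was not tested. In males 22% of 17722 genes rose with it and 26.7% fell. The slope was 1.89 for *Tm4sf19* (SE 0.10, adjusted p = 1.32e-27), 1.79 for *Tph2* (SE 0.24, adjusted p = 4.3e-09) and 1.53 for *Lipf* (SE 0.21, adjusted p = 1.15e-08), and 0.07 for *Sult1e1* (SE 0.15, adjusted p = 0.741) with a 95% interval of -0.23 to 0.37. In the 67 females, where *Sult1e1* did not pass the filter on low counts, the slopes were 1.64 for *Tm4sf19* (SE 0.12), 2.23 for *Tph2* (SE 0.30) and 1.73 for *Lipf* (SE 0.26), with adjusted p of 1.64e-17, 6.52e-08 and 7.52e-07, where 17.4% of genes rose and 17.6% fell.

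The other scores gave a similar picture in females, with exceptions. *Tm4sf19* rose with the macrophage score by 1.67 (SE 0.21, adjusted p = 6.64e-09), where 10.5% of genes rose and 13% fell, and *Tph2* by 1.03 (SE 0.37, adjusted p = 0.0327), while *Lipf* had 0.76 (SE 0.31, adjusted p = 0.0666). The adipocyte slope passed the test in females for *Tph2*, at 1.4 (SE 0.47, adjusted p = 0.00831), and for *Lipf*, at 1.56 (SE 0.38, adjusted p = 0.000252), where 30.9% of genes rose and 31.6% fell. With the stromal score *Tm4sf19* rose by 0.85 (SE 0.27, adjusted p = 0.00985), where 15% of genes rose and 25.3% fell, and *Tph2* and *Lipf* had 0.55 and 0.60 (adjusted p = 0.203 and 0.105). Without the 2 female libraries against their label these slopes were 0.96 (adjusted p = 0.0331) and 0.89 (adjusted p = 0.0182). Whether these slopes differ between the sexes was not tested.

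**Figure D4:**
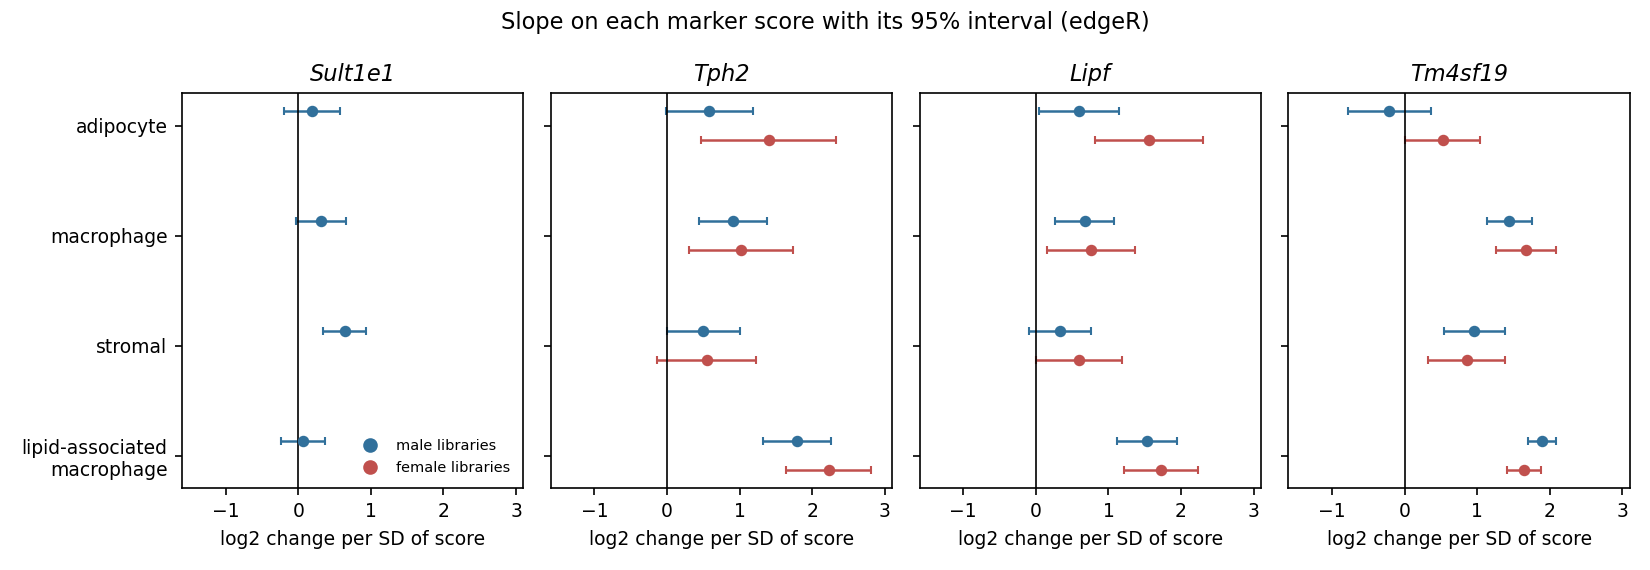
Slope of each gene on 4 marker scores, as log2 change per SD of the score with its 95% interval, in male (blue) and female (red) libraries; *Sult1e1* has no female value. In males *Tph2*, *Lipf* and *Tm4sf19* have their largest slopes on the lipid-associated macrophage score, from 1.53 to 1.89. That score was added after the data were seen and holds close correlates of *Tm4sf19*. *Sult1e1* has its largest slope in males on the stromal score, 0.64.

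Single markers show which genes lie behind the scores. The following r are over the 74 males and are descriptions, since the genes share libraries and depth. *Tm4sf19* had r = 0.96 with *Atp6v0d2*, a subunit of the proton pump used by osteoclasts, 0.94 with *Trem2*, the lipid receptor of macrophages, 0.92 with *Mmp12* and 0.89 with *Cd68*. *Tph2* had r = 0.81 with *Mmp12*, 0.77 with *Dcstamp*, which serves cell fusion in osteoclasts, and 0.68 with *Adgre1*. *Lipf* had r = 0.74 with *Mmp12* and 0.72 with *Dcstamp*. Over the macrophage list r ranged from 0.075 with *Mertk* to 0.68 with *Adgre1* for *Tph2*, and from 0.025 to 0.63 with the same markers for *Lipf*. With *Csf1r* r was 0.27 and 0.22. Among adipocyte markers both genes followed *Lep*, which encodes leptin, with r = 0.75 for *Tph2* and 0.79 for *Lipf*, and ran against *Cfd*, which encodes adipsin, with r = -0.59 and -0.57. Their r with *Adipoq* was 0.13 and 0.18 and with *Plin1* -0.01 and 0.02, so the adipocyte list did not move as 1 unit with them. *Spp1* and *Acp5* of the osteoclast-type list had r between -0.06 and 0.24 with these 3 genes. *Sult1e1* had its highest r with collagen and matrix genes of stromal cells, 0.49 with *Col1a2*, 0.46 with *Col3a1*, 0.45 with *Dcn* and 0.42 with *Col1a1*. The lipid droplet gene *Plin4* also had 0.42. The stromal list did not move as 1 unit with *Sult1e1*, as r was 0.36 with *Cd34*, 0.25 with *Pdgfra*, 0.083 with *Dpp4* and -0.14 with *Thy1*.

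**Figure D5:**
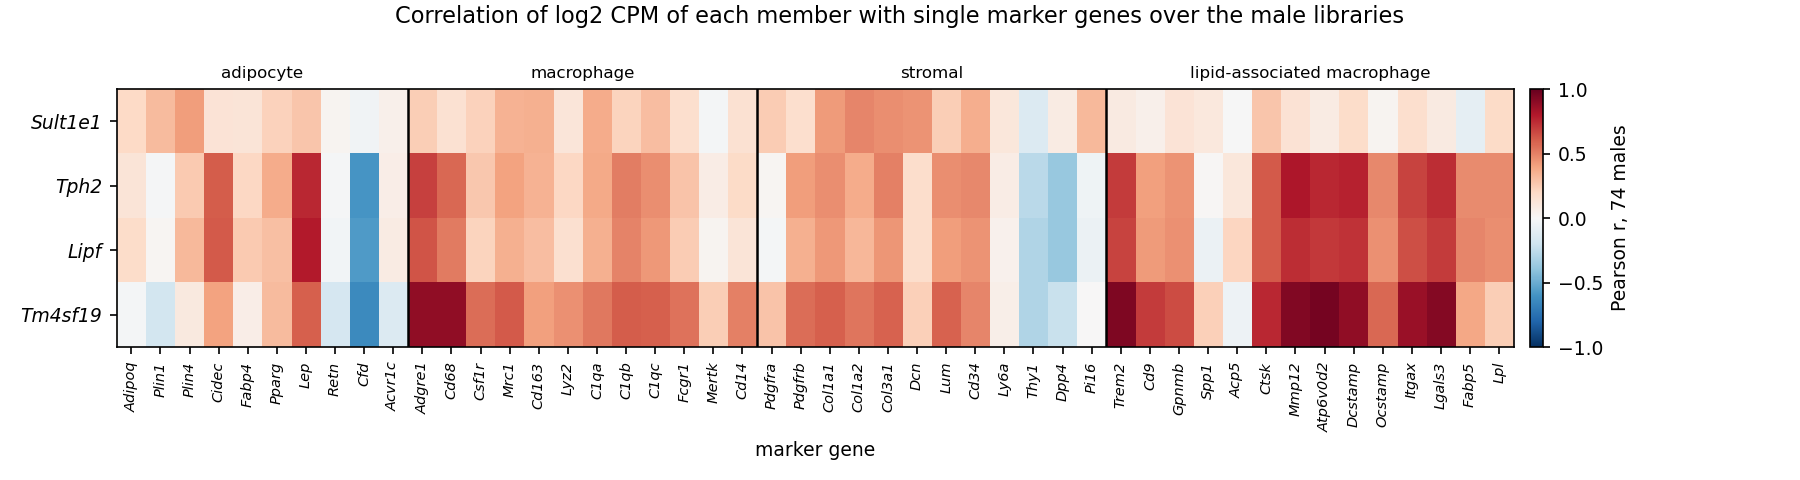
Pearson r of log2 CPM over the 74 male libraries between each of the 4 genes (rows) and the single marker genes of 4 lists (columns), from -1 (blue) to 1 (red). *Tph2*, *Lipf* and *Tm4sf19* share a pattern with *Lep*, *Cfd* and the osteoclast-type genes, and *Sult1e1* shows its highest values with *Col1a2*, *Col3a1* and *Dcn*.

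Some of these scores differed between the sexes. Within the 59 strains the female score was lower by a mean of 0.65 (SD 0.83) on the log2 scale for the osteoclast-type list, with 9 strains higher in the female, by 0.53 (SD 0.77) for the adipocyte list and by 0.24 (SD 0.59) for the macrophage list, and it was higher by 0.03 (SD 0.52) for the stromal list. Refitting the sex contrast with a score as a covariate moved the values of 3 genes. With the osteoclast-type score, the log2FC, female vs. male, was -0.96 (SE 0.40) for *Tph2*, -1.25 (SE 0.32) for *Lipf* and -0.63 (SE 0.24) for *Tm4sf19*, and -8.69 (SE 0.36) for *Sult1e1*. With the adipocyte score it was -1.47 (SE 0.39), -1.55 (SE 0.30), -2.04 (SE 0.37) and -7.92 (SE 0.32), and with the macrophage score -2.16 (SE 0.42), -2.17 (SE 0.33), -1.55 (SE 0.27) and -8.46 (SE 0.31), in the same order. These are descriptions of the contrast that chose the genes, and the part of cell composition in it was not tested.

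Strain by strain, the difference between the sexes moved with the difference in score. Over the 59 strains, the female minus male difference of *Tm4sf19* correlated with that of the osteoclast-type score with r = 0.85 (permutation p = 1e-05) and rho = 0.81 (permutation p = 1e-05). For *Lipf* r was 0.64 (permutation p = 1e-05) and rho 0.55 (permutation p = 3e-05), and for *Tph2* r was 0.62 (permutation p = 1e-05) and rho 0.48 (permutation p = 0.00013). Leaving out the 2 strains with the most extreme scores gave r = 0.81, 0.54 and 0.52. *Sult1e1* had r = 0.22 (permutation p = 0.102) and rho = 0.091 (permutation p = 0.489). Its r was 0.33 with the stromal score (permutation p = 0.0103, rho = 0.28 with p = 0.0353), 0.32 with the adipocyte score (permutation p = 0.0147, rho = 0.20 with p = 0.127) and 0.28 with the macrophage score (permutation p = 0.031, rho = 0.22 with p = 0.0978). Without the 2 strains with the most extreme scores these r were 0.23, 0.12 and 0.19, so they rest in part on those strains. *Tm4sf19* had r = 0.67 with the macrophage score (permutation p = 1e-05, rho = 0.59 with p = 1e-05), and *Tph2* had r = 0.50 with the stromal score (permutation p = 5e-05, rho = 0.38 with p = 0.00314). With the adipocyte score r was 0.51 for *Tph2* (permutation p = 3e-05, rho = 0.42 with p = 8e-04) and 0.49 for *Lipf* (permutation p = 0.00014, rho = 0.44 with p = 0.00056), and 0.092 for *Tm4sf19* (permutation p = 0.49, rho = 0.053 with p = 0.689). In all 16 such relations were computed over strains that include NZW/LacJ, and leaving out that strain alone was not tried. AXB19b/PgnJ, in which the female was higher for 3 genes, also had the higher osteoclast-type score in the female, by 1.24. In other strains gene and score did not go together, as BXD84/RwwJ and CE/J had more *Tph2* in the female but a score that was lower there, with differences of -1.76 and -1.24.

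The 5 genes most like each member were found by Pearson r over the 74 males among 14566 genes, and r in the 67 females, which took no part in the choice, is given beside it. For *Tm4sf19* they were *Atp6v0d2* (r = 0.96 in males and 0.92 in females), *Cd300lb* (0.95 and 0.76), *Atf3* (0.95 and 0.84), *Trem2* (0.94 and 0.80) and ENSMUSG00000116470, whose values follow those of *Trem2* (0.94 and 0.80). *Tph2* and *Lipf* were each other's closest gene. *Tph2* was next followed by *Adap2* (0.83 in males and 0.73 in females), *Itgad*, an integrin subunit of macrophages (0.82 and 0.81), *Tfpi2* (0.82 and 0.77) and *Ubd* (0.82 and 0.55). *Lipf* shared *Ubd* (0.84 and 0.51) and *Itgad* (0.84 and 0.70) and had *Unc79* (0.84 and 0.84) and *Palld* (0.83 and 0.72) besides. *Sult1e1* stood with *C7*, a complement gene of stromal cells (r = 0.74 and rho = 0.71 in males), *Col4a4* (0.62), *Ms4a4d* (0.60), *Lgi2* (0.59) and *Ogn*, a proteoglycan gene (0.58), and with females at the floor their r there was 0.28 at most. *C7*, *Col4a4* and *Lgi2* were lower in females, with log2FC of -4.07, -1.66 and -1.06 (edgeR adjusted p = 1.03e-25, 2.09e-17 and 1.78e-09), whereas *Ogn* and *Ms4a4d* had -0.18 and -0.11 and were not called (adjusted p = 0.192 and 0.1 by edgeR).

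The genes next to the members on the chromosome mostly did not share their pattern. *Sult1d1*, 6942 bases from *Sult1e1*, had a mean of 0.414 TPM in males and 0.359 TPM in females, and its r with *Sult1e1* was -0.083. *Tbc1d15*, 12850 bases from *Tph2*, was lower in females with a log2FC of -0.17 (edgeR adjusted p = 4.24e-08) and had r = 0.044 with it. *Trhde* on the other side had -0.10 (edgeR adjusted p = 0.485) and r = 0.50 with *Tph2*. *Lipk*, 31480 bases from *Lipf*, was at 0.00301 TPM in males and 0.0731 TPM in females. *Ubxn7*, 6759 bases from *Tm4sf19*, was higher in females by 0.12 (edgeR adjusted p = 0.000357). The exception was *Gm20056*, a processed pseudogene 309 bases beyond the end of *Tm4sf19* on the same strand, with a mean of 11.3 TPM in males and 3.39 TPM in females, a log2FC of -1.78 (edgeR adjusted p = 4.95e-10) and r = 0.89 with *Tm4sf19*. Whether its reads come from a longer *Tm4sf19* transcript was not tested.

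The pathways around each gene were read from lists that do not contain the 4 genes, in the same sex contrast, where 28.3% of genes were called higher and 29.8% lower in females. Of 24 genes that handle oestrogens and androgens, 19 were tested, 8 were higher and 7 lower in females, with a median log2FC of -0.01 beside 0.01 over all genes. Higher in females were *Pgr*, the progesterone receptor, with 7.75 (SE 0.37), *Greb1*, a known oestrogen target, with 3.18 (SE 0.24), and *Sult2b1*, a cholesterol sulfotransferase, with 1.68 (SE 0.16). Lower were *Gper1* with -0.66 (SE 0.11), *Papss2*, which makes the sulfate donor, with -0.58 (SE 0.06), and *Hsd17b4* with -0.46 (SE 0.08). The edgeR adjusted p of these 6 ranged from 1.31e-26 to 1.48e-06. Females carry mammary epithelium in this fat pad, with a median of 487 CPM over 9 markers against 2.55 CPM in males, and its part in these values was not tested.

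Of 21 genes of serotonin synthesis, transport, breakdown and receptors, 15 were tested, 6 were higher and 4 lower in females, with a median log2FC of 0.16. *Tph1*, the peripheral tryptophan hydroxylase, went opposite to *Tph2*. It was higher in females by 3.18 (SE 0.31, edgeR adjusted p = 1.04e-13), at 6.06 ± 12.02 TPM (SD, n = 67) against 0.671 ± 0.554 TPM (SD, n = 74). *Slc18a2*, the vesicular monoamine transporter, and *Slc6a4*, the serotonin transporter, were higher in females by 0.82 (SE 0.14, edgeR adjusted p = 1.07e-06) and 0.45 (SE 0.13, edgeR adjusted p = 0.00158). Mast cells, which use these genes, had a score higher in females in 52 of 59 strains, with all 6 markers called higher, and their part in it was not tested. The mammary epithelial score was higher in females in 58 of 59 strains, and its part was not tested either. *Htr2b* was lower with -0.86 (SE 0.22), and the monoamine oxidases *Maoa* and *Maob* by log2FC of -0.29 (SE 0.09) and -0.25 (SE 0.08), with edgeR adjusted p of 0.00074, 0.00531 and 0.00496.

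Of 25 lipase genes 15 were tested, 3 were higher and 10 lower in females, with a median log2FC of -0.35. The lower ones include *Lpl*, lipoprotein lipase, at -0.59 (SE 0.12), *Lipe*, hormone-sensitive lipase, at -0.58 (SE 0.10), and *Mgll*, monoglyceride lipase, at -0.54 (SE 0.10), with edgeR adjusted p of 2.28e-05, 5.5e-07 and 1.15e-05. *Liph*, *Cel* and *Lipc* were higher, by 3.38 (SE 0.17), 3.33 (SE 0.50) and 1.13 (SE 0.21), with edgeR adjusted p of 2.55e-25, 9.13e-08 and 7.06e-06. The part of mammary epithelium in these higher values was not tested. With the adipocyte score as a covariate 3 lipase genes rather than 10 were lower. Of 4 other genes of the L6 tetraspan family 2 were tested, and neither was called, with log2FC of 0.14 for *Tm4sf1* (edgeR adjusted p = 0.105) and -0.19 for *Tm4sf5* (edgeR adjusted p = 0.314). Of the 14 lipid-associated macrophage and osteoclast-type genes 11 were lower in females and 2 higher, with a median log2FC of -0.70. *Mmp12* had -2.13 (SE 0.26), *Atp6v0d2* -1.95 (SE 0.24) and *Gpnmb* -1.67 (SE 0.23), with edgeR adjusted p of 2.14e-10, 4.49e-10 and 1.07e-08. *Cd9* and *Spp1* were higher in females by 0.95 (SE 0.08) and 1.05 (SE 0.36), with edgeR adjusted p of 5.32e-15 and 0.0111.

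Markers of stomach, neurons and the male accessory organs were low in males, and no testis marker was looked at. The 6 gastric markers summed to 3.36 CPM at most in any library, with *Gif*, *Pgc*, *Tff1* and *Gkn1* at 0 in most males, and the r of that score with *Lipf* in males was -0.41 (rho = -0.40). The 6 neuronal markers had a male median of 2.35 CPM and a highest value of 6.82 CPM in males, against 29.5 CPM in females, and r with *Tph2* was -0.33 (rho = -0.34). The 6 epididymal and accessory gland markers were each at 0 in most males, with a median sum of 0.0323 CPM and a highest of 24.6 CPM, and r with *Sult1e1* was -0.05 (rho = -0.05). The share of counts from mitochondrially encoded genes moved with 3 of the genes in males, with r = -0.45 for *Tph2* (permutation p = 9e-05), -0.46 for *Lipf* (permutation p = 5e-05) and -0.40 for *Tm4sf19* (permutation p = 0.00022), and rho of -0.46, -0.37 and -0.44, and its part in their spread was not tested. For *Sult1e1* r was -0.16 (permutation p = 0.168). Library totals had r between -0.039 and 0.038 with the 4 genes in males.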

How the data were processed

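Strand-specific poly(A) RNA-seq libraries of iWAT, 1 per sex and strain, were quantified by the authors with kallisto 0.46.1 against mouse transcripts of the mm10 (GRCm38) build and summed per gene. The deposited estimated counts (30.3% of them not whole) were rounded for count models, and the deposited TPM, which the authors' software scales by length and depth, give the levels. Of 36558 gene identifiers 35935 were paired with a GENCODE M21 symbol. Depth was 6.27e+06 to 7.86e+07 counts, and the Poisson interval of *Sult1e1* covers counting error only.

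The sex contrast (~ Strain + Sex, 59 strains with both sexes), strain family, BXD by sex and marker scores were fitted with edgeR 4.0.16 (quasi-likelihood, TMM, low-count filter of the package) in R 4.3.3 over all genes, with Benjamini-Hochberg adjustment and a threshold of 0.05. SE is the absolute log2FC divided by the square root of F, and a 95% interval is 1.96 SE to either side. Sexes are paired because both libraries come from the same strain, and the median r of female and male levels over all genes was 0.30. Correlations used log2 CPM (TMM, prior count 2) with 100000 permutations (scipy 1.17.1). The permutations and the fits within a sex treat strains as independent, and relatedness of strains was not modelled. Alternatives were DESeq2 1.42.0, limma 3.58.1 on log2(TPM + 1) and log2(TPM + 0.1), limma-voom, other scalings and filters, no replicate block, covariates and left-out libraries. Model code was tested on simulated data.

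The members, gene lists and tests were chosen with earlier results of these data known. Named genes are the 4 members, up to 3 genes per direction with the largest log2FC among those called from each of 5 pathway lists, and for each member the 5 genes with the highest r in males among genes with a mean of at least 1 CPM. Other marker genes and strains were picked as examples after their values were seen. Whether a library holds 1 animal or a pool is not given in the sources used here.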

Additional observations from a re-analysis of the deposited data

Results flagged for a closer look

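Libraries that stand apart from their group were looked for in 4 groups, which are the 9 female AXB/BXA libraries for each of the 4 genes, since the other families hold fewer than 4 or more than 10 libraries of 1 sex. In 2 of the 4 the female of BXA8/PgnJ lay apart. Its *Sult1e1* was 0.163 TPM, from 3 counts, where 7 of the 9 libraries had none, and its *Tm4sf19* was 1.47 TPM beside a group median of 0.155 TPM. Chance alone puts about 1 in 20 groups past this limit, and the *Sult1e1* value is at the floor of detection.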

How the results depend on the processing

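Of the values recomputed under alternatives, 349 kept their direction and their side of the threshold or stayed within the spread. Another 24 moved, 12 changed sign, 16 newly passed the threshold and 2 no longer passed it, and the cause was not tested. *Sult1e1* had a sex log2FC of -5.93 on log2(TPM + 0.1) and -3.07 on log2(TPM + 1). Without the replicate block, which ignores the pairing of the sexes by strain, the log2FC was -8.62 for *Sult1e1*, -1.29 for *Tph2*, -1.73 for *Lipf* and -2.40 for *Tm4sf19*, 61 genes instead of 0 were called for BXD by sex, and 4 genes of oestrogen and androgen handling were lower in females. With at least 10 counts in every library none of the 4 members remained, and 5 oestrogen and androgen, 2 serotonin and 0 lipase genes were higher in females. No filter gave 5 lipase genes higher. With the adipocyte score as a covariate 4 oestrogen and androgen, 2 serotonin and 3 lipase genes were lower, and 1 L6 family gene was higher, as it was with library totals and with both TPM scales. Library totals gave 4 oestrogen and androgen genes lower and moved the median log2FC of all genes to 0.12 from 0.01, with 7410 genes higher and 2774 lower in females instead of 4753 and 4989. The TPM scales gave 5354 higher and 2878 lower with 1 added and 5379 and 2855 with 0.1 added.

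The count of genes differing between families was 1247 and changed to 2005 with the adipocyte score, 598 and 557 on log2(TPM + 0.1) and log2(TPM + 1), and 2280 without a filter. The difference of the sex contrast between BXD and other strains changed sign for *Sult1e1* with library totals (-0.025) and on log2(TPM + 1) (-0.40), and on log2(TPM + 1) for *Tph2* (-0.18) and *Lipf* (-0.10).

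The adipocyte slope passed the threshold for *Tph2* with DESeq2 (0.58), in females (1.4, and 1.38 without libraries against their label) and with the 3 scores in 1 model (0.76), and for *Lipf* with DESeq2 (0.59), in females (1.56 with and without those libraries), on log2(TPM + 0.1) (0.61) and with 3 scores (0.70). For *Tm4sf19* it turned positive in females (0.52, and 0.48 without those libraries), on log2(TPM + 0.1) (0.036) and with 3 scores (0.30). The macrophage slope of *Sult1e1* passed on log2(TPM + 0.1) (0.48) and log2(TPM + 1) (0.37) and was -0.22 with 3 scores, and that of *Lipf* missed the threshold in females (0.76 with and without those libraries). The genes called on the macrophage score were 7079 in males, 4491 in females, 3810 in females without those libraries and 2973 with 3 scores. The stromal slope of *Tph2* passed in females without those libraries (0.96), on log2(TPM + 0.1) (0.79) and on log2(TPM + 1) (0.65) and was -0.50 with 3 scores. That of *Lipf* passed in females without those libraries (0.89) and was -0.68 with 3 scores, that of *Tm4sf19* was -0.67 with 3 scores, and the genes called fell from 8003 to 1949. The r of *Sult1e1* and *Tm4sf19* passed in females (0.29). *Sult1e1* was too low for the fits in females, where depth limits what can be seen of it.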
